A study of Homo sapiens with 5 samples.

Results

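The AP-1 transcription factor subunits described here are 10 genes, FOS, FOSB, FOSL1, FOSL2, JUN, JUNB, JUND, ATF3, BATF3 and MAFF, of 58174 genes in the deposited table. They were taken by gene symbol, and each symbol matched 1 row. The cells were Ishikawa, an established human endometrial carcinoma line grown in RPMI medium with fetal bovine serum. In 3 libraries (sh-LINC00958) the cells carried a lentiviral short hairpin RNA against LINC00958, a long non-coding RNA, and in 2 libraries (sh-NC) they were the negative control. Infected cells were selected with puromycin at 2.5 µg/ml, and the number of hairpins or clones and the time of harvest are not stated in the sources used here. Whether libraries with the same label are separate cultures is not stated either. All p-values therefore measure the spread between these libraries, which may be technical.

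AP-1 is a dimer of basic leucine zipper (bZIP) proteins. JUN proteins can pair with each other or, more stably, with FOS proteins, which do not form stable dimers among themselves. The dimers bind the sequence TGACTCA, and pairs that include ATF proteins prefer TGACGTCA. FOS and JUN genes are classical targets of growth factor, stress and MAP kinase signalling, and their short-lived transcripts also respond to serum and cell handling. In epithelial tumour cells FOSL1 and JUN are known for driving genes of migration and invasion.

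Values are TPM, a transcript abundance scaled for gene length and library total, so levels of different genes can be set side by side. The sequencing depth is unknown. In a bulk sample, a change in the share of cells that express a gene and a change in RNA per cell cannot be told apart. LINC00958 itself measured 67.2, 67.1 and 58.4 TPM in sh-LINC00958 and 119.3 and 137.4 TPM in sh-NC (log2 fold change -0.99, limma adjusted p = 0.0119). Epithelial markers summed to 2460 to 2630 TPM in sh-LINC00958 and to 2480 TPM in both sh-NC libraries. Single markers went both ways inside this sum. KRT8, KRT18, KRT19 and CLDN3 were higher in every sh-LINC00958 library than in both controls, and EPCAM, PAX8 and SOX17 were lower. CDH1 and MUC1 overlapped. Groups lay apart upward for 24.4% and downward for 25.5% of all tested genes. The estrogen receptor gene ESR1 was listed at 0 in 4 of the 5 libraries and at 0.0149 TPM in the other. Markers of fibroblasts summed to 5.33 to 5.87 TPM in sh-LINC00958 and 4.95 to 5.1 TPM in sh-NC, with DCN and FAP at 0 throughout. Blood cell markers summed to 5.87 to 6.39 TPM in sh-LINC00958 and 5.45 to 6.29 TPM in sh-NC, most of it HBA1, with CD3E and HBB at 0 throughout. Endothelial markers summed to 4.55 to 6.28 TPM in sh-LINC00958 and 6.93 to 7.5 TPM in sh-NC, with KDR at 0 throughout.

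FOS, FOSL1, JUN and JUND rose in cells carrying the LINC00958 hairpin, and no AP-1 gene was called lower. The genes were tested with limma on log2(TPM + 1) in one fit across the 17049 genes with a mean of at least 1 TPM, with Benjamini-Hochberg adjustment over all of them and 0.05 as the threshold. Adjusted p-values are from that limma fit except where a different one is given. Of the 10 members, 9 passed the filter on low values and FOSB did not. Of those 9, 4 were called higher, where 4.12% of all tested genes were called higher, and 0 were called lower, where 5.68% of all tested genes were. At an unadjusted p under 0.05 there were 5 higher and 0 lower members, where 14.3% of all tested genes were higher and 16.3% lower. The median log2 fold change was 0.72 over the 9 tested members and 0.0014 over all tested genes. Groups did not overlap for 6 of the 9 in the upward direction (24.4% of all tested genes) and for 1, JUNB, in the downward direction (25.5%). The number of limma calls depended on single libraries, over all tested genes as well as over the members. Without sh-LINC00958 replicate 1, 37 of 17079 genes were called higher. The count was 905 of 17058 without replicate 2 and 112 of 17084 without replicate 3, and the member counts are to be read beside these. Without sh-LINC00958 replicate 1, FOS alone was called (1 member), without replicate 2 all 4 were, without replicate 3 FOS and JUN were (2 members), and without either sh-NC replicate 0 members were. With replicate 2 left out 6 members had an unadjusted p under 0.05, and with either sh-NC library left out 4 had. The folds of the 4 genes stayed positive in all of these fits. An exact two-sided permutation test over the 5 libraries, which cannot go below p = 0.1, gave 0.1 for each of the 4 genes.

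**Figure D1:**
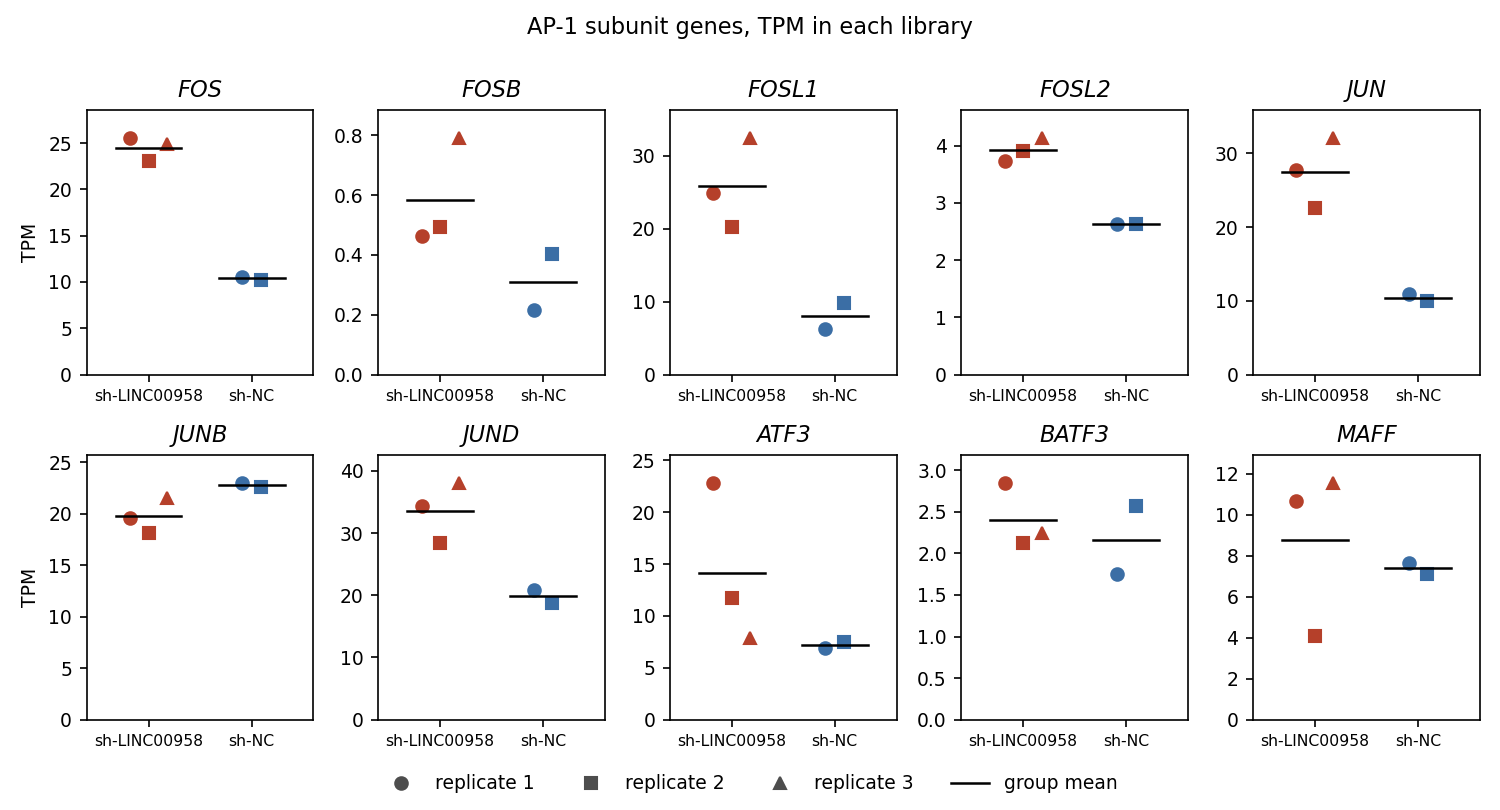
TPM of the 10 AP-1 genes (vertical axes from 0, one scale per gene) in the 3 sh-LINC00958 libraries and the 2 sh-NC libraries, with the group mean as a line. FOS, FOSL1, JUN, JUND, FOSB, FOSL2 and ATF3 are higher in every sh-LINC00958 library than in both controls, and JUNB is lower. Among all tested genes, 24.4% lie apart upward and 25.5% downward. The groups of BATF3 and MAFF overlap, and ATF3 and MAFF are spread widely within sh-LINC00958.

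Among the FOS genes, FOS encodes the founding partner of JUN in the dimer. The gene (ENSG00000170345, chr14:75278774-75282230 in GRCh38, plus strand) measured 25.5, 23.0 and 24.9 TPM in sh-LINC00958 and 10.5 and 10.3 TPM in sh-NC. All sh-LINC00958 libraries lay well above both controls, with little spread inside either group. The means were 24.5 ± 1.31 TPM (SD, n = 3) in sh-LINC00958 and 10.4 ± 0.193 TPM (SD, n = 2) in sh-NC. The log2 fold change was 1.16 ± 0.1001 (SE; 95% interval 0.92 to 1.41; adjusted p = 0.00774). Of all tested genes, 0.610% had a larger fitted rise.

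FOSL1 encodes FRA-1, a FOS-like protein that lacks the strong activation domain of FOS. It had the largest fold of the 10 genes. FOSL1 (ENSG00000175592, chr11:65892049-65900573, minus strand) measured 24.8, 20.3 and 32.4 TPM in sh-LINC00958 and 6.23 and 9.79 TPM in sh-NC. The lowest sh-LINC00958 library was still far above the higher control, but the spread inside both groups was wider than for FOS. The means were 25.8 ± 6.12 TPM (SD, n = 3) in sh-LINC00958 and 8.01 ± 2.52 TPM (SD, n = 2) in sh-NC. Its log2 fold change was 1.58 ± 0.249 (SE; 95% interval 0.97 to 2.19; adjusted p = 0.0248). When single libraries were left out, the log2 fold change of FOSL1 ranged from 1.29 (without sh-NC replicate 1, adjusted p = 0.121) to 1.87 (without sh-NC replicate 2, adjusted p = 0.0848).

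FOSL2, which encodes FRA-2, was expressed at a low level. FOSL2 (ENSG00000075426, chr2:28392448-28417312, plus strand) measured 3.73, 3.91 and 4.13 TPM in sh-LINC00958 and 2.63 and 2.62 TPM in sh-NC. The groups did not overlap, and the log2 fold change of 0.44 (95% interval 0.11 to 0.77) did not pass (adjusted p = 0.0906, unadjusted p = 0.0167). FOSB (ENSG00000125740, chr19:45467995-45475179, plus strand), the fourth FOS gene, measured 0.464, 0.494 and 0.791 TPM in sh-LINC00958 and 0.215 and 0.404 TPM in sh-NC. It was too low for the filter. In the fit with no filter on low values FOSB had a log2 fold change of 0.27 (95% interval -0.09 to 0.63, adjusted p = 0.412).

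JUN encodes c-Jun, the strongest activator among the JUN proteins. JUN (ENSG00000177606, chr1:58780788-58784327, minus strand, a gene of 1 exon) measured 27.8, 22.6 and 32.1 TPM in sh-LINC00958 and 10.9 and 9.91 TPM in sh-NC. Every sh-LINC00958 library exceeded both controls. The means were 27.5 ± 4.76 TPM (SD, n = 3) in sh-LINC00958 and 10.4 ± 0.669 TPM (SD, n = 2) in sh-NC. Its log2 fold change was 1.31 ± 0.161 (SE; 95% interval 0.91 to 1.71; adjusted p = 0.0155). It stayed between 1.195 and 1.44 when single libraries were left out.

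JUND encodes the JUN protein that is present most evenly across tissues. JUND (ENSG00000130522, chr19:18279760-18281622, minus strand, 1 exon) measured 34.3, 28.4 and 38.0 TPM in sh-LINC00958 and 20.9 and 18.8 TPM in sh-NC. The groups did not overlap, with means of 33.6 ± 4.83 TPM (SD, n = 3) in sh-LINC00958 and 19.8 ± 1.47 TPM (SD, n = 2) in sh-NC. Its log2 fold change was 0.72 ± 0.143 (SE; 95% interval 0.37 to 1.07; adjusted p = 0.0368).

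JUNB, which encodes a JUN protein that can oppose c-Jun at some promoters, stood apart from JUN and JUND. JUNB (ENSG00000171223, chr19:12791496-12793315, plus strand, 1 exon) measured 19.5, 18.1 and 21.5 TPM in sh-LINC00958 and 22.9 and 22.6 TPM in sh-NC. All sh-LINC00958 libraries lay slightly below both controls. The log2 fold change was -0.20 (95% interval -0.47 to 0.06, adjusted p = 0.261; exact permutation p = 0.2), so a rise like that of JUN was outside its interval. JUNB shares exonic bases with HOOK2, a gene on the opposite strand, and the strand setting of the libraries is not given. Reads of the shared bases can therefore not be told apart. HOOK2 measured 54.5, 59.5 and 53.9 TPM in sh-LINC00958 and 45.7 and 47.6 TPM in sh-NC (log2 fold change 0.26, adjusted p = 0.111). FOSB, FOSL2 and MAFF also overlap genes on the opposite strand, but share no exonic bases with them.

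The promoters of FOS, JUN and JUND are shown because these are the called genes with a window. FOSL1, the other called gene, and BATF3 have no window. All 8 members with a window hold at least 1 of the bZIP-type motifs searched, whether called or not. ATF3 and MAFF each have a further window without a match. Whether a motif goes with the calls was not tested. The windows run from 250 bases before to 50 bases after the start of the gene (RefSeq, GRCh38.p14). They lie at chr14:75278578-75278877 on the plus strand, chr1:58783998-58784297 on the minus strand and chr19:18281573-18281872 on the minus strand, in the order printed. Capitals mark matches to TGACTCA, TGACGTCA, TGACATCA or TGACG on either strand.
FOS: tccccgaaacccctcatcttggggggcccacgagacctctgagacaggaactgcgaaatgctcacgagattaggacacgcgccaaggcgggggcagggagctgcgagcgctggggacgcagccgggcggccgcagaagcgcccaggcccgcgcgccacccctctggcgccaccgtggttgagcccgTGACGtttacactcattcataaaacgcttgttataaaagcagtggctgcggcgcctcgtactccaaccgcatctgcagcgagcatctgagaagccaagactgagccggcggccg
JUN: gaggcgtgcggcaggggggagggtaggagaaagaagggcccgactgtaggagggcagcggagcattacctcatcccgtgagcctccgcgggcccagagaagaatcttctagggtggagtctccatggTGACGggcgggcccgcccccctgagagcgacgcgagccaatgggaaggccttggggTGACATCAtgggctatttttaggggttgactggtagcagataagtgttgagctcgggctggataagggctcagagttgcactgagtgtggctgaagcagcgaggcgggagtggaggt
JUND: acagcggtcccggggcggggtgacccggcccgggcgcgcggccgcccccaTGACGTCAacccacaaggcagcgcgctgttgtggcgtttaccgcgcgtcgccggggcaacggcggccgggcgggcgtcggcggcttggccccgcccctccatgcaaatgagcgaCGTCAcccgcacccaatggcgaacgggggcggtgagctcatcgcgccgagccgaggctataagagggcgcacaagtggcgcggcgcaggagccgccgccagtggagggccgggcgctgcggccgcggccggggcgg

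The FOS window holds TGACG at -64 to -60 relative to the start. The JUN window holds TGACATCA at -67 to -60, a match found in 2.61% of all 35116 promoter windows of this length, and TGACG at -123 to -119. The JUND window holds TGACGTCA at -200 to -193, present in 1.85% of all windows, and TGACG again at -86 to -82 on the other strand. TGACG alone, which is part of TGACGTCA, occurs in 24.6% of windows. Genes that were not called hold the same motifs, TGACGTCA in MAFF at -54 to -47, TGACATCA in ATF3 at -123 to -116 and TGACG in JUNB at -137 to -133. TGACTCA, present in 4.95% of all windows, was found only in FOSL2 among the 8 members with a window, just past its start. The serum response motif known as the CArG box (1.29% of all windows) had no match in these windows. They reach only 250 bases before the start, and sites further out were not searched. A match describes letters in the window and does not show that a protein bound there.

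ATF3 is a stress-induced bZIP gene whose protein often represses its targets. ATF3 (ENSG00000162772, chr1:212565334-212620777, plus strand) measured 22.8, 11.7 and 7.85 TPM in sh-LINC00958 and 6.96 and 7.45 TPM in sh-NC. Replicate 1 was nearly double replicate 2, and replicate 3 lay just above the controls. The log2 fold change of 0.76 had a 95% interval from -0.21 to 1.73 (adjusted p = 0.252; exact permutation p = 0.2). Without sh-LINC00958 replicate 1 the ATF3 log2 fold change was 0.37 (limma adjusted p = 0.363), and without replicate 3 it was 1.08 (limma adjusted p = 0.126).

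MAFF encodes a small MAF protein without an activation domain of its own. MAFF (ENSG00000185022, chr22:38200767-38216511, plus strand) measured 10.7, 4.08 and 11.5 TPM in sh-LINC00958 and 7.66 and 7.14 TPM in sh-NC. Replicate 2 lay below both controls and the other sh-LINC00958 libraries above them, so the groups overlapped. Its log2 fold change was 0.11 (95% interval -0.87 to 1.09, adjusted p = 0.878) with all libraries and 0.53 (adjusted p = 0.0536) without sh-LINC00958 replicate 2. BATF3 (ENSG00000123685, chr1:212686418-212699985, minus strand), whose protein is known from dendritic cell development, measured 2.84, 2.12 and 2.25 TPM in sh-LINC00958 and 1.75 and 2.57 TPM in sh-NC. These groups overlapped too (log2 fold change 0.12, 95% interval -0.35 to 0.58, adjusted p = 0.722).

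Replicate 2 of sh-LINC00958 gave the lowest value of its group for 7 of the 10 genes and the highest for 0, while replicate 3 gave the highest for 7. On the first principal component of all tested genes (51.1% of variance) replicate 2 was also the sh-LINC00958 library nearest to sh-NC. Its LINC00958 level, 67.1 TPM, was close to the 67.2 TPM of replicate 1. The part of this library in the results was not tested beyond the fits without it.

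**Figure D2:**
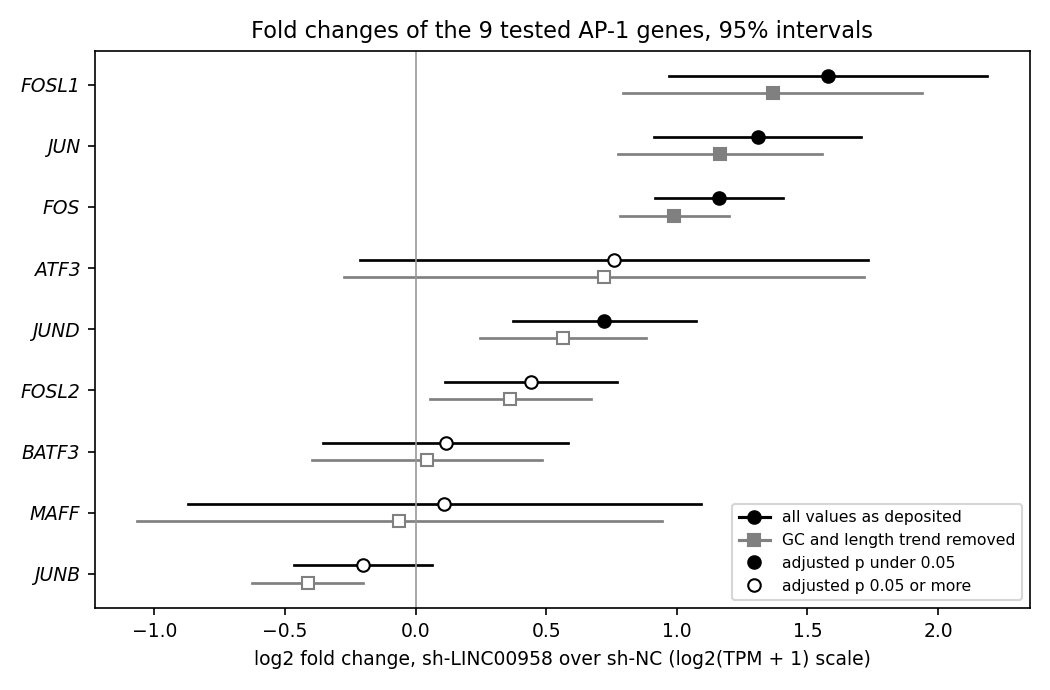
Log2 fold change of the 9 tested AP-1 genes in sh-LINC00958 over sh-NC with 95% intervals (horizontal axis), from the values as deposited (black circles) and after removal of the trend over GC content and length (grey squares), with filled symbols for an adjusted p under 0.05. FOSL1, JUN and FOS are filled in both, JUND only before the removal, and JUNB lies below 0 in both.

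The rises changed the make-up of AP-1 transcripts, described here without a test because TPM sums follow from the same values. Summed over the 4 FOS genes, the libraries held 54.6, 47.7 and 62.3 TPM in sh-LINC00958 and 19.6 and 23.1 TPM in sh-NC, a ratio of means of 2.57. Summed over the 3 JUN genes they held 81.7, 69.1 and 91.6 TPM in sh-LINC00958 and 54.7 and 51.3 TPM in sh-NC, a ratio of 1.52. Summed FOS genes over summed JUN genes thus gave 0.669, 0.691 and 0.680 in sh-LINC00958 and 0.359 and 0.449 in sh-NC.

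Within the JUN genes the share of JUN was 33.9% ± 1.19 (SD, n = 3) in sh-LINC00958 and 19.6% ± 0.388 (SD, n = 2) in sh-NC. The share of JUNB was 24.5% ± 1.47 in sh-LINC00958 and 43.0% ± 1.49 in sh-NC, and that of JUND was 41.6% ± 0.451 in sh-LINC00958 and 37.4% ± 1.11 in sh-NC. JUND led in sh-LINC00958 and JUNB in sh-NC, where JUND came next at 19.8 ± 1.47 TPM, against 22.8 ± 0.226 TPM for JUNB. A ratio of 2 genes does not depend on the scaling of a library. JUN over JUNB was 1.42, 1.25 and 1.49 in sh-LINC00958 and 0.473 and 0.438 in sh-NC. JUN over FOS was 1.09, 0.9795 and 1.29 in sh-LINC00958 and 1.03 and 0.966 in sh-NC, and these groups overlapped.

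Within the FOS genes FOS and FOSL1 made up most transcripts in both groups. FOSL1 took 45.5%, 42.5% and 52.1% in sh-LINC00958 and 31.8% and 42.4% in sh-NC, so that the highest control almost met the lowest sh-LINC00958 library. The share of FOSL2 was 7.22% ± 0.847 (SD, n = 3) in sh-LINC00958 and 12.4% ± 1.44 (SD, n = 2) in sh-NC. In the order of mean levels in sh-LINC00958, JUND stood first, followed by JUN, FOSL1, FOS, JUNB, ATF3, MAFF, FOSL2, BATF3 and FOSB. Neighbours in this order had overlapping ranges except FOS and JUNB, FOSL2 and BATF3, and BATF3 and FOSB. In sh-NC the order was JUNB, JUND, FOS, JUN, FOSL1, MAFF, ATF3, FOSL2, BATF3 and FOSB, and ranges overlapped for FOS and JUN, for FOSL1 and MAFF, and for MAFF and ATF3, but for no other neighbours.

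**Figure D3:**
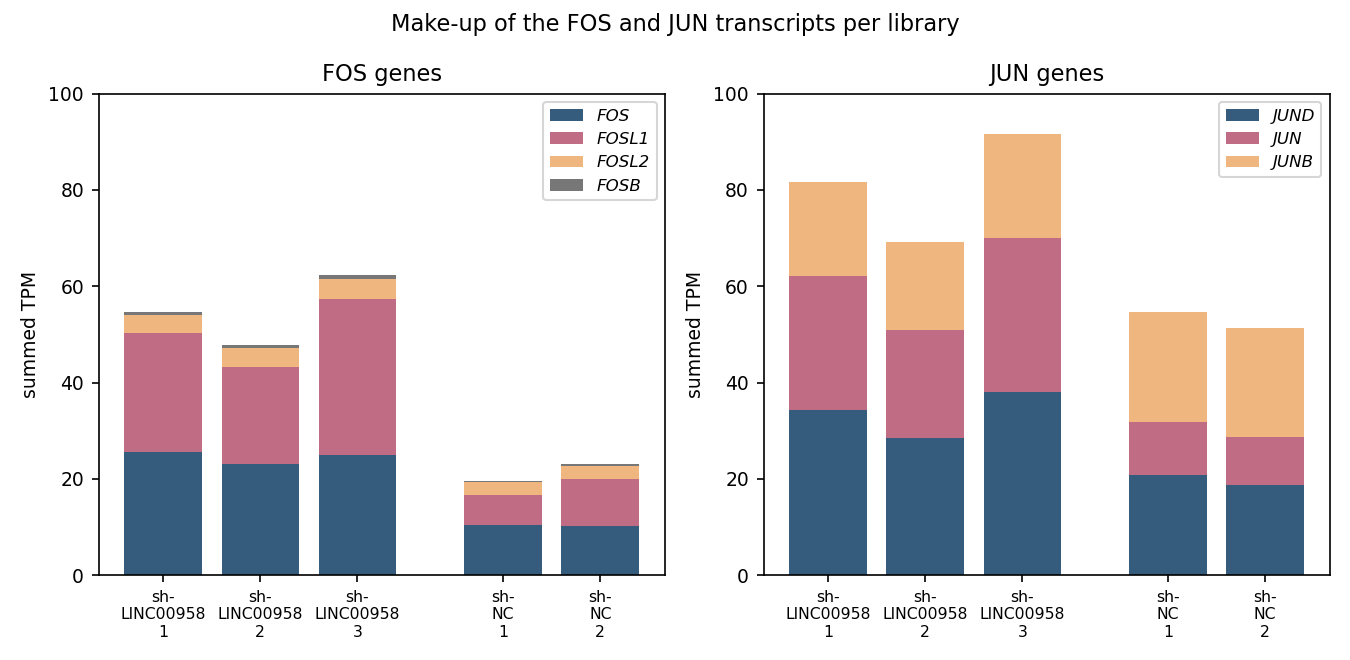
Summed TPM (vertical axes from 0) of the 4 FOS genes and the 3 JUN genes in each library, sh-LINC00958 at the left and sh-NC at the right of each panel, with a colour per gene. FOS genes sum to 47.7 to 62.3 TPM in sh-LINC00958 and 19.6 to 23.1 TPM in sh-NC, and the JUNB segment is the one that is not taller in sh-LINC00958.

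GC content moved with the comparison as a whole. Tested genes were put into 4 bins of 4249 or 4250 genes by transcript GC content. In the top bin (56.4% to 86.4%) genes had a median log2 fold change of 0.18 and 8.49% were called higher, and in the bottom bin (23.1% to 43.0%) the median was -0.29 and 1.01% were called higher. FOS (58.5%), FOSL1 (60.1%), JUN (56.7%), JUND (69.7%), JUNB (64.9%) and MAFF (60.2%) all lay in the top bin, and FOSL2, ATF3 and BATF3 in the next. The part of GC content in the results was not tested beyond the fit without its trend. When the trend over GC content and length was taken out of each library, FOS (log2 fold change 0.99, adjusted p = 0.00918), FOSL1 (1.37, adjusted p = 0.0376) and JUN (1.16, adjusted p = 0.0231) were still called higher. These 3 of the 9 tested members stood beside 2.44% of all genes called higher in that fit. JUND was not called (0.57, adjusted p = 0.0682). JUNB had a log2 fold change of -0.41 there (95% interval -0.63 to -0.20, adjusted p = 0.0575). The fold of JUNB was thus negative in both fits, and the cause was not tested.

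**Figure D4:**
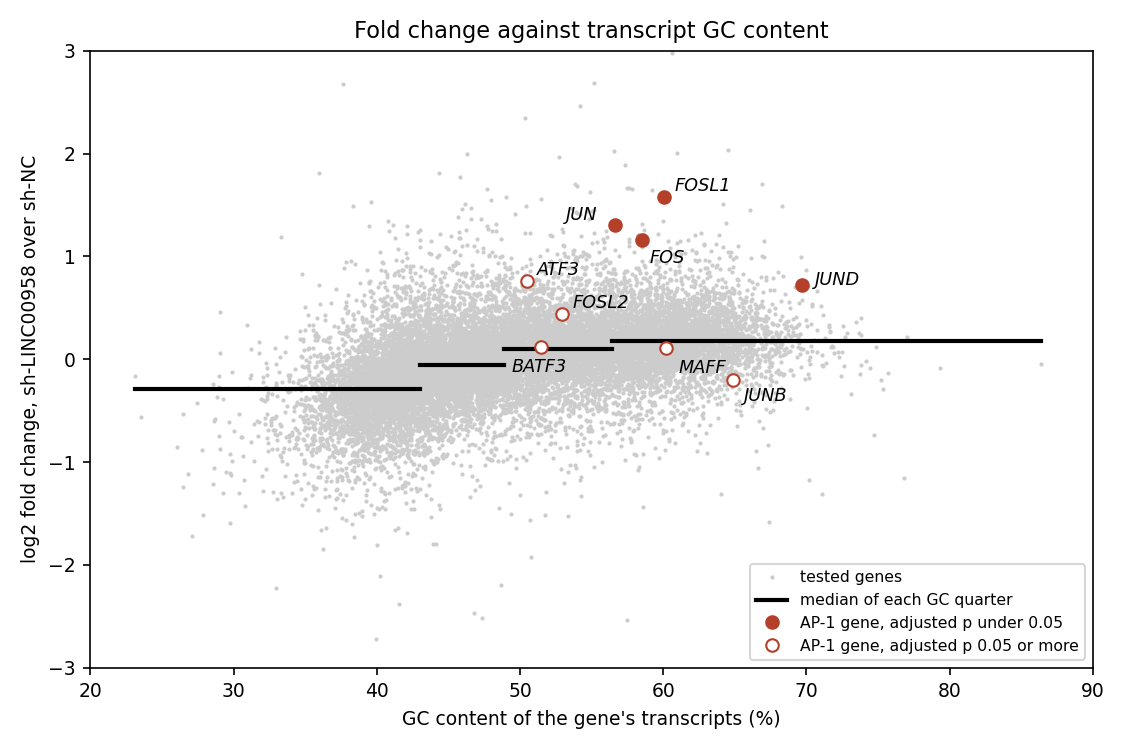
Log2 fold change in sh-LINC00958 over sh-NC (vertical axis) against the GC content of each gene's transcripts (horizontal axis, percent) for the tested genes (grey), with the median of each of 4 GC bins as a line and the 9 tested AP-1 genes in red. FOSL1, JUN and FOS lie far above the line of their bin, at 0.18, and JUNB lies below it. The plot leaves out 11 genes beyond a log2 fold change of 3 in size.

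The short life of FOS-type transcripts is known to rest on AUUUA pentamers in the 3′ untranslated region, to which decay factors bind. FOS has 5 of them in 806 bases (6.20 per kb), JUN has 3 in 1287 bases (2.33 per kb), FOSL1 has 1 in 666 bases and JUND has 1 in 681 bases. JUNB, which did not rise, has 2 in 500 bases (4.0 per kb). All 10 members have at least 1, as do 66.9% of 19145 genes, and the median over those genes is 1.47 per kb. MAFF, which was not called, holds the same 2 overlapping pentamers as FOS, in bases 1512 to 1541 of its 3′ untranslated region. The densest stretch of FOS, at bases 623 to 652 of that region (GENCODE 29 transcript, chromosome 14), is shown with its overlapping pentamers in capitals.
FOS: aaacgttttattgtgtttttaATTTATTTA

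Related genes were counted in the same fit, from lists chosen with earlier results of these data known. Each list's counts are to be read against all tested genes, of which 4.12% were called higher and 5.68% lower, and 14.3% were higher and 16.3% lower at an unadjusted p under 0.05. A count of 1 in the lists of 14, 22 and 24 tested genes is near those shares of called genes. Over all tested genes limma called 37 of 17079 higher and 54 lower without sh-LINC00958 replicate 1. Without replicate 3 it called 112 of 17084 higher and 149 lower. With the GC and length trend taken out it called 414 of 16999 higher and 443 lower. A list count of 0 in these fits is near those shares. At an unadjusted p under 0.05 limma gave 1738, 2063 and 2091 genes higher and 2141, 2260 and 2110 lower. Of the factors known to bind such elements or to degrade JUN and FOS proteins, 1 of 14 tested fell and 0 rose by limma (3 and 0 at an unadjusted p under 0.05). This was ZFP36L2, a factor that promotes decay of AU-rich transcripts, at 24.4, 24.7 and 22.7 TPM in sh-LINC00958 and 39.5 and 43.4 TPM in sh-NC (log2 fold change -0.77, adjusted p = 0.0155; -0.88 and adjusted p = 0.00939 with the GC and length trend taken out). The most abundant gene of that list, HNRNPD, had a log2 fold change of -0.26 (adjusted p = 0.135). The list's median log2 fold change was -0.08. Without sh-LINC00958 replicate 1 or 3 or either sh-NC replicate, limma called 0 genes of the list, with 1 lower at an unadjusted p under 0.05 in each of these fits. Without replicate 2 it called 2 lower.

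Other bZIP genes that can pair or compete with AP-1 included 3 of 22 tested that were called higher and 1 that was called lower. NFE2L1, a regulator of proteasome genes, measured 140.2, 135.0 and 125.9 TPM in sh-LINC00958 and 71.9 and 65.2 TPM in sh-NC (log2 fold change 0.95, adjusted p = 0.00890). ATF1 (0.91, adjusted p = 0.0348), a CREB relative, and CREB3 (0.61, adjusted p = 0.0217), a membrane-bound bZIP factor, rose as well. BACH1, a repressor that pairs with small MAF proteins such as MAFF, fell to 10.9, 10.8 and 10.5 TPM in sh-LINC00958, against 18.7 and 22.9 TPM in sh-NC (log2 fold change -0.89, adjusted p = 0.0183). The list's median was 0.06. With the GC and length trend taken out the 3 rises were still called and BACH1 was not (-0.60, adjusted p = 0.0526). Without sh-LINC00958 replicate 1 or either sh-NC replicate limma called 0 genes of the list, with 4 higher and 1 or 2 lower at an unadjusted p under 0.05. Without replicate 3 it called 1 higher and 0 lower.

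Of 24 tested genes of the MAP kinase cascades that act on AP-1, 5 rose, 1 fell and 18 did not pass, around a median log2 fold change of 0.04. Those that rose were MAPK3 (0.48, adjusted p = 0.0282), which encodes ERK1, the p38 kinase genes MAPK12 (0.44, adjusted p = 0.0464) and MAPK13 (0.56, adjusted p = 0.0446), the kinase kinase kinase gene MAP3K11 (0.51, adjusted p = 0.0365) and RPS6KA4 (0.47, adjusted p = 0.0282), which encodes MSK2. MAP3K1, an activator of the JNK pathway, fell (-0.70, adjusted p = 0.0350). MAP2K3, the most abundant of the list, had a log2 fold change of 0.23 (adjusted p = 0.378). With the GC and length trend taken out 0 of these genes were called by limma in either direction (7 higher and 3 lower at an unadjusted p under 0.05), with folds of 0.26 to 0.45 for the 5 and -0.37 for MAP3K1. The count was also 0 without sh-LINC00958 replicate 1 or 3 or either sh-NC replicate, with 6 or 7 higher and 1 to 4 lower at an unadjusted p under 0.05, and without replicate 2 it was 4 higher and 2 lower.

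SRF, the serum response factor that acts on FOS and JUNB, rose (log2 fold change 0.53, adjusted p = 0.0280) and its partner ELK3 fell (-0.62, adjusted p = 0.0310) among 8 tested genes of that group. At an unadjusted p under 0.05 limma gave 2 of the 8 higher and 4 lower. SRF measured 32.9, 32.5 and 33.1 TPM in sh-LINC00958 and 23.6 and 21.4 TPM in sh-NC. The most abundant partner, ELK1, had a log2 fold change of 0.22 (adjusted p = 0.122), and the group's median was -0.11. The SRF call was lost with the GC and length trend taken out (0.35, adjusted p = 0.0791), whereas ELK3 was still called (-0.52, adjusted p = 0.0384). Among 12 tested co-regulators of AP-1, NACA (0.28, adjusted p = 0.0480; 0.25 and adjusted p = 0.0897 without the trend) rose and 0 fell (2 and 0 at an unadjusted p under 0.05), around a median of 0.10. In neither group did limma call a gene without sh-LINC00958 replicate 1 or 3 or either sh-NC replicate. In those fits 1 or 2 genes of the SRF group were higher and 1 to 3 lower at an unadjusted p under 0.05, and 2 or 3 co-regulators were higher and 0 or 1 lower.

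Known targets of AP-1 were called in both directions. Of 44 listed genes 30 were tested, and 4 rose, 4 fell and 22 did not pass, where 4.12% of all tested genes were called higher and 5.68% lower. At an unadjusted p under 0.05 limma gave 11 higher and 4 lower, where 14.3% of all tested genes were higher and 16.3% lower. The list had a median log2 fold change of 0.33, set beside 0.0014 over all tested genes, and 0.18 with the GC and length trend taken out. Groups did not overlap for 17 of the 30 in the upward direction and for 7 in the downward direction, where the shares of all tested genes were 24.4% and 25.5%, so the downward count was near that of all genes. PLAU, CD44 and CCND1 were known from earlier results of these data when the list was made.

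PLAU, the urokinase gene with a well-known AP-1 enhancer, measured 20.2, 18.9 and 31.0 TPM in sh-LINC00958 and 7.89 and 5.15 TPM in sh-NC (log2 fold change 1.69, adjusted p = 0.0236). IL11, a cytokine gene, measured 2.49, 2.25 and 2.91 TPM in sh-LINC00958 and 0.658 and 0.537 TPM in sh-NC (1.15, adjusted p = 0.0212). TNFRSF12A, the receptor gene for the cytokine TWEAK, measured 152.8, 123.6 and 174.0 TPM in sh-LINC00958 and 80.1 and 78.2 TPM in sh-NC (0.90, adjusted p = 0.0261). For these 3 genes every sh-LINC00958 library exceeded both controls, and all 3 were still called with the GC and length trend taken out. CD44 (0.82, adjusted p = 0.0372), an adhesion receptor gene named to complete the count, was then at 0.84 (adjusted p = 0.0529).

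Among the targets that fell, GCLM, a glutathione synthesis gene, measured 31.4, 40.1 and 30.8 TPM in sh-LINC00958 and 64.8 and 76.3 TPM in sh-NC (log2 fold change -1.03, adjusted p = 0.0201). HMGA2, which encodes an architectural chromatin protein, measured 65.0, 65.0 and 64.6 TPM in sh-LINC00958 and 127.9 and 120.6 TPM in sh-NC (-0.93, adjusted p = 0.0067). CCND1, the cyclin D1 gene, measured 409.2, 449.9 and 403.2 TPM in sh-LINC00958 and 697.3 and 706.8 TPM in sh-NC (-0.74, adjusted p = 0.0103). All 3 were also called lower with the GC and length trend taken out. ITGA2 (-0.61, adjusted p = 0.0461), an integrin gene named to complete the count, was not (-0.40, adjusted p = 0.209). Without sh-LINC00958 replicate 1, 0 targets were called higher and 1 lower, without replicate 3, 0 and 2, and without either sh-NC replicate, 0 and 0. At an unadjusted p under 0.05 limma gave 5 to 9 higher and 4 lower in each of these fits.

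**Figure D5:**
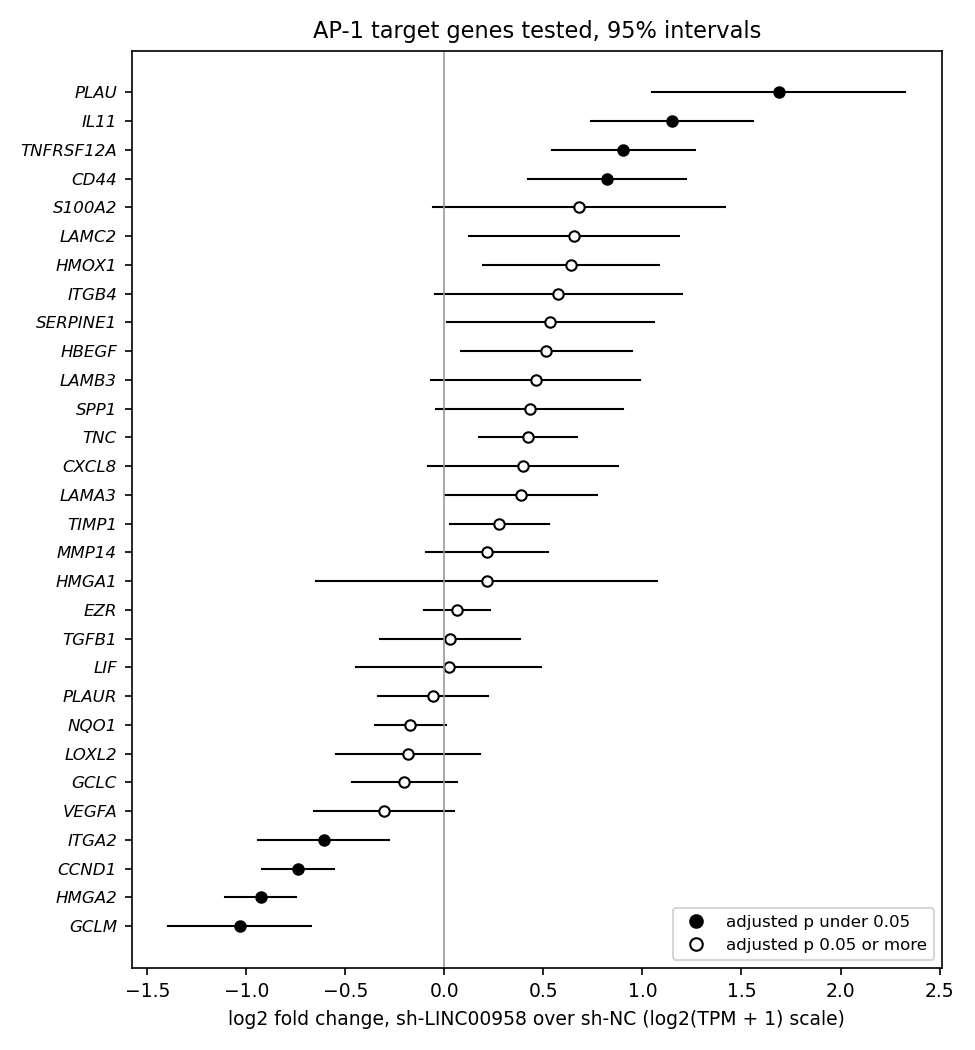
Log2 fold change in sh-LINC00958 over sh-NC (horizontal axis) with 95% intervals for the 30 tested AP-1 target genes, ordered by fold, with filled symbols for an adjusted p under 0.05. PLAU, IL11, TNFRSF12A and CD44 are filled above 0, and GCLM, HMGA2, CCND1 and ITGA2 are filled below 0.

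Genes with the most similar pattern over the 5 libraries were taken as those nearest in log2(TPM + 1) relative to the sh-NC mean, among 12096 genes with a mean of at least 5 TPM. Nearest to FOS were OGFR (distance 0.0933), MEX3D (0.14) and PPP1R9B (0.141). Nearest to JUN were FGFBP1 (distance 0.133), which encodes a carrier of fibroblast growth factors, the mitochondrial transfer RNA gene MT-TF (0.155) and the read-through annotation P2RX5-TAX1BP3 (0.306). FOSL1 had no neighbour as close, with GOLGA2 (distance 0.552), ZDHHC16 (0.579) and C22orf34 (0.608) as the nearest. FGFBP1 measured 54.8, 46.0 and 68.6 TPM in sh-LINC00958 and 23.7 and 22.0 TPM in sh-NC, in the same order of sh-LINC00958 libraries as JUN. These distances are descriptions over 5 libraries and carry no test.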

How the data were processed

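RNA of 5 libraries was sequenced, and the authors deposited 1 table of TPM per gene. Per the submitters' processing notes, FastQC 0.11.2, Trimmomatic 0.36, HISAT2 2.0 and StringTie 1.3.3b were used with GRCh38. The sources used here state neither the annotation release nor the strand setting. TPM keeps no depth, so no counting interval can be given, and a value is a share of its library's RNA. Groups came from the sample titles. Of the gene IDs, 57836 matched GENCODE 29, which gave coordinates, GC content and exonic length; promoters came from RefSeq.

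Differences were fitted with limma 3.58.1 in R 4.3.3 on log2(TPM + 1), with eBayes and a mean-variance trend and no further scaling, over all genes with a mean of at least 1 TPM, two-sided, with Benjamini-Hochberg adjustment at 0.05. Fold changes on this scale understate changes of low genes. The fit was tested on simulated data. The GC and length trend was removed per library with natural splines (5 degrees of freedom each) over 16999 genes. Composition, motif and distance values carry no test, and the motif and pentamer searches were added after the values were seen.

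The 10 members and all lists were chosen with earlier results of these data known. The rule for named genes took all members, LINC00958, the most abundant gene of each of 6 related lists with up to 6 called genes of smallest p, and 3 nearest genes for each of FOS, JUN and FOSL1. TAZ was dropped from the co-regulators because that symbol is another gene in this annotation. Alternatives were 2 pseudocounts, 2 filters, 2 scalings, 2 forms of eBayes, the GC and length removal, a replicate block and leaving out each library.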

Additional observations from a re-analysis of the deposited data

How the results depend on the processing

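The folds of FOS, FOSL1, JUN and JUND were positive, and that of JUNB negative, in all 15 alternatives. The number of AP-1 genes called higher by limma was 4 in the main comparison, 2 with no filter on low values (FOSL1 at adjusted p = 0.0731 and JUND at 0.0907 were not called), 3 with eBayes without the trend (JUND at 0.0578 was not called), 3 with the GC and length trend taken out, 0 with the replicate block, and 0 to 4 when single libraries were left out. JUND was called in 7 of the 15 alternatives. With the block 5 members had an unadjusted p under 0.05. Over all genes, 702 were called higher and 969 lower. With no filter the counts were 207 and 269, with eBayes without the trend 371 and 518, and with the GC and length trend taken out 414 and 443. When single libraries were left out they ranged from 10 to 905 and from 6 to 1491. Each such fit has 1 library fewer.

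The titles do not state whether equal replicate numbers mark pairs of libraries. Deviations of same-numbered libraries correlated at 0.001 and 0.05. With 2 sh-NC libraries, whose deviations mirror each other, such correlations cannot decide whether the libraries are paired. With the replicate block limma called 0 genes higher and 2 lower, with 2000 and 2213 at an unadjusted p under 0.05. The log2 fold change of MAFF turned to -0.12 with the block and -0.062 with the GC and length trend taken out, and ranged from -0.12 to 0.53 when single libraries were left out. That of BATF3 ranged from -0.072 (without sh-NC replicate 1) to 0.30 in those fits. The cause was not tested. FOSB was tested only in the fit with no filter. TPM keeps no depth, so the counting error of low genes such as FOSB and FOSL2 is unknown. Median-ratio scaling and quantile normalization moved the median of all genes by 0.00564 and 0.0139 on the log2 scale.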
